A study of Homo sapiens with 12 samples.

Results

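HPA-12, which blocks CERT, the ceramide transfer protein, was added to the FLT3 kinase inhibitor crenolanib in MV-4-11 leukaemia cells, and the RNA of the combination was compared with that of crenolanib alone. The comparison used 6 of the study's 12 sequencing libraries, 3 labelled combination and 3 labelled crenolanib, and the members were chosen by these labels. MV-4-11 is an established human acute myeloid leukaemia (AML) line, and every library carried the labels WT for genotype and bone marrow for source. The crenolanib group received crenolanib for 48 h, and the combination group received crenolanib together with (1R,3S)-HPA-12 for 48 h, so both groups compared carry crenolanib. The other 6 libraries, 3 of the solvent DMSO with no time given and 3 of HPA-12 alone for 48 h, were used only for the comparison with HPA-12 alone. The sources used here give no doses. As a model the study rests on 1 cell line, and nothing in the labels ties the 3 libraries of a group to separate cultures.

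FLT3 is a receptor tyrosine kinase of blood progenitors. In MV-4-11 an internal duplication keeps it active, and it signals through STAT5 and the MAP kinases. CERT, encoded by CERT1, carries ceramide from the endoplasmic reticulum to the Golgi, where ceramide is made into sphingomyelin. The title of the study names GRP78, ATF6 and CHOP. GRP78, encoded by HSPA5, is the main chaperone of the endoplasmic reticulum and restrains the membrane sensor ATF6, whose cleaved form enters the nucleus and switches on chaperone genes through a promoter motif known as the endoplasmic reticulum stress element. CHOP, encoded by DDIT3, is a transcription factor linked to cell death that is induced downstream of ATF4.

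The libraries of the 2 groups differed in depth and make-up. Reads recovered from the values came to 8835942 ± 82253 per crenolanib library and 3174868 ± 225122 per combination library (SD, n = 3 each). These sums leave out 10 genes whose reads were not recovered, 8 of them mitochondrially encoded, and so understate the depth of the combination most. From the value of 1 read, the depth relative to crenolanib library 1 was 1.00 ± 0.00888 under crenolanib and 0.466 ± 0.0342 in the combination. The 13 mitochondrially encoded protein genes took 36.0 ± 0.119% of all FPKM under crenolanib and 62.2 ± 0.502% in the combination, against 19.8% in DMSO and 21.6% with HPA-12 alone. This difference of 26.2 percentage points had an exact permutation p of 0.1 (two-sided), the smallest that 3 libraries against 3 allow. Genes listed at 0 numbered 4948 ± 65.4 of 20036 under crenolanib and 7971 ± 77.5 in the combination, a difference of 3023 with the same exact permutation p of 0.1. A total of 950 genes were at 0 in the 3 combination libraries and above 0 in the 3 crenolanib libraries, at a median crenolanib level of 0.236 rescaled FPKM, and 0 genes showed the opposite. Across 10237 genes, the 3 libraries of a group correlated at r = 0.985 to 0.986 under crenolanib and at 0.896 to 0.897 in the combination. Values are given below as rescaled FPKM, the deposited fragments per kilobase at a fixed library size, divided by a factor that sets the median ratio between libraries to 1 over 10174 genes, the mitochondrially encoded ones left out. Differences are combination minus crenolanib on the log2(rescaled FPKM + 1) scale with the standard error (SE) of a limma fit, a scale that understates changes of low genes. A gene rose or fell only where the adjusted p of limma was under 0.05.

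Of 10237 genes tested, 2862 changed (28.0%), 1596 of them higher (15.6%) and 1266 lower (12.4%) in the combination, and 1300 changed by over 1 log2 unit. The median difference over all genes tested was -0.08. The counts of each list below stand against the shares of 15.6% and 12.4%, and a count near them says nothing particular of its list. By list median, globin and red cell membrane genes rose most, followed by the mitochondrially encoded genes, replication-dependent histones, haem and iron genes, erythroid factors and ribosomal proteins. The 12 most raised genes were HBM (4.16), AHSP (4.0), MYL4 (4.0), CA1 (3.84), EPB42 (3.79), KEL (3.77), HBD (3.73), H4C13 (3.72), OSBP2 (3.71), SLC4A1 (3.69), ALAS2 (3.67) and HBA1 (3.64), each given as its log2 difference, and 9 of them belong to the globin, haem or red cell membrane lists. H4C13, a histone, rested on few reads, with means of 4 reads per crenolanib library and 35 per combination library. The split between higher and lower depended on the scaling. With FPKM as deposited, the median of all genes moved by -0.57, to -0.65, and 758 genes were higher and 5102 lower. With libraries scaled to their FPKM sum without the mitochondrially encoded genes, it moved by -0.56, to -0.64, and 764 were higher and 5031 lower. A rise no larger than this shift falls to 0 or below it without the rescaling, and this is stated beside each gene list it turns. Leaving out a crenolanib library left between 1400 and 1428 changed genes, and leaving out a combination library between 3244 and 3340. Each fit pools 1 variance per gene over the 2 groups, and the combination libraries vary more. Leaving out a crenolanib library raises their weight in that variance, and leaving out a combination library lowers it. A call lost without a crenolanib library therefore need not mean a changed difference.

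Globin and red cell membrane genes had the highest medians among the lists. Red cell genes make haemoglobin, haem and the membrane skeleton of the red cell, and are read as markers of the erythroid lineage. All 9 tested globin genes rose, with a median difference of 3.43, and all 9 were apart from crenolanib in every library, where 22.4% of all genes tested had the combination above with no overlap. HBE1 and HBZ, the embryonic globins, did not reach the level needed for the test, and HBE1 was at 0 in all 3 combination libraries. HBB, adult beta globin, was at 3183, 2994 and 3015 rescaled FPKM in the crenolanib libraries and at 29647, 29850.3 and 29877 in the combination libraries. Every combination library was far above every crenolanib library, and the 3 libraries of each group lay close together. The difference in HBB was 3.28 ± 0.03 (SE; limma adjusted p = 7.27e-10), a 9.72-fold higher mean level. HBM, mu globin, was at 49.2, 48.8 and 47.6 under crenolanib and at 910.0, 877 and 874 in the combination, a difference of 4.16 ± 0.05. AHSP, the chaperone that holds free alpha globin, was at 63.7, 55.2 and 57.4 and then at 992, 952 and 924, a difference of 4.0 ± 0.06. HBD, delta globin, differed by 3.73 ± 0.09 and HBA1, alpha globin, by 3.64 ± 0.11. The groups did not overlap for any of these genes. HBA1 and HBA2, and HBG1 and HBG2, are near-identical copies, so how reads were split between each pair is uncertain.

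The summed globin list was at 3172 to 3359 rescaled FPKM in the crenolanib libraries and at 32485 to 32596 in the combination libraries. As a share of FPKM without the mitochondrially encoded genes, globins took 0.0358% in DMSO, 0.108% under HPA-12 alone, 2.21 ± 0.0737% under crenolanib and 13.5 ± 0.0314% in the combination (SD, n = 3). In bulk RNA, more cells of a type and more of its RNA per cell cannot be told apart.

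**Figure D1:**
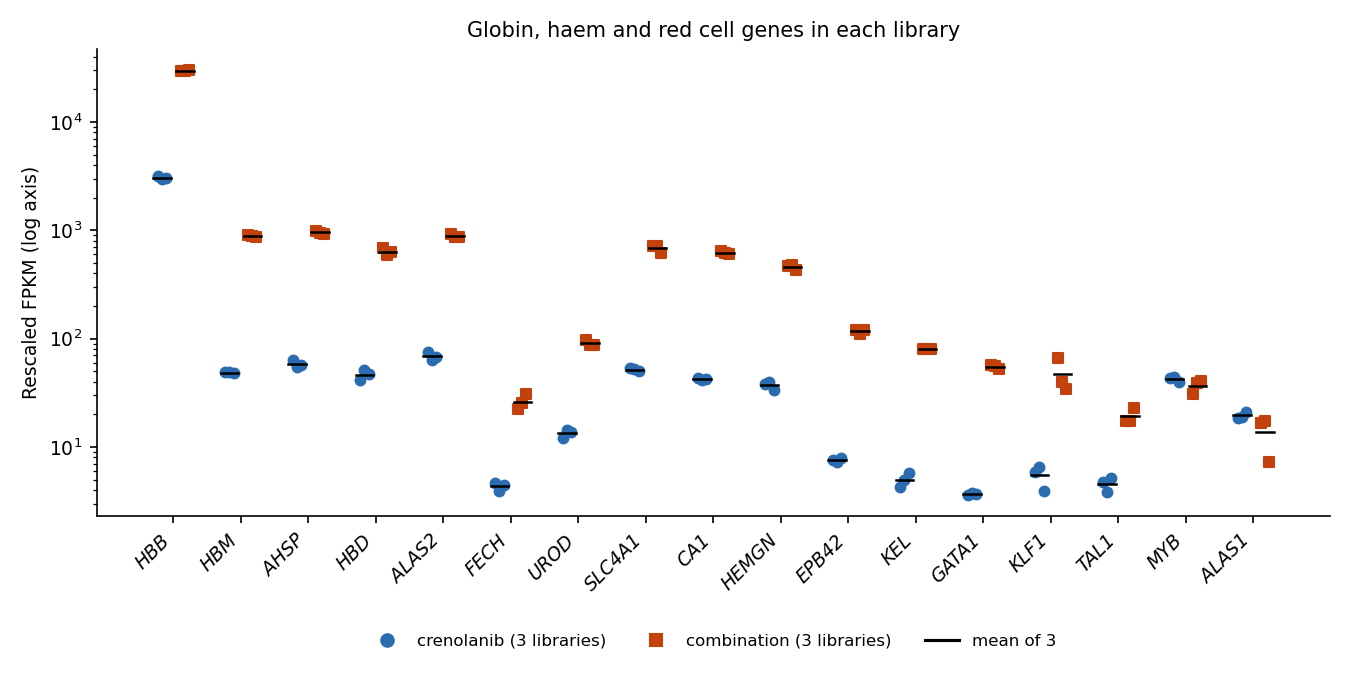
Rescaled FPKM (log axis) of 17 red cell list genes in each library: circles are the 3 crenolanib libraries, squares the 3 combination libraries and bars the mean of 3. For HBB to TAL1 every square lies above every circle, with HBB at a 9.72-fold higher mean in the combination, while the MYB and ALAS1 means lie lower in the combination.

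Of 18 haem synthesis and iron handling genes tested, 15 rose and 0 fell, with a median of 1.89. ALAS2, the erythroid form of the rate-limiting enzyme of haem synthesis, was at 75.8, 64.0 and 67.5 rescaled FPKM under crenolanib and at 927, 867 and 873 in the combination, a difference of 3.67 ± 0.07. ALAS1, the form used in other tissues, did not pass, at -0.56 ± 0.30. The later enzymes UROD (2.67 ± 0.11), PPOX (2.08 ± 0.22) and FECH (2.34 ± 0.16), which closes the pathway by inserting iron, all rose. UROD was at 12, 14.5 and 13.8 and then at 97.8, 86.8 and 87.9, with no overlap. On the iron side the transferrin receptors TFRC (2.38 ± 0.08) and TFR2 (2.85 ± 0.17), and SLC25A37, the mitochondrial iron importer (2.66 ± 0.07), rose. BLVRB, a biliverdin reductase abundant in red cells, rose by 3.02 ± 0.17. The ferritin subunits were split, with FTL at 0.86 ± 0.02 and FTH1 not passing at 0.16 ± 0.07. SLC25A38, the mitochondrial glycine carrier, did not pass at 0.90 ± 0.34 (limma adjusted p = 0.0881). The summed list went from between 4414 and 4497 to between 8991 and 9316.

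All 20 red cell membrane, blood group and late red cell genes rose, with a median of 3.08, and every member tested did so under every alternative run except 2 scalings, FPKM as deposited and the FPKM sum, where 19 of 20 rose. SLC4A1, the anion exchanger band 3, was at 53.3, 52.0 and 50.03 rescaled FPKM under crenolanib and at 714, 710.0 and 617 in the combination, a difference of 3.69 ± 0.07. EPB42, a protein that ties band 3 to the membrane skeleton, was at 7.58, 7.32 and 7.82 and then at 120.2, 111 and 121 (3.79 ± 0.09). KEL, the Kell blood group protein, was at 4.30, 4.97 and 5.71 and then at 79.8, 80.6 and 80.2 (3.77 ± 0.12). The combination libraries were all above the crenolanib libraries for each of these 3 genes. CA1, a carbonic anhydrase of mature red cells, rose by 3.84 ± 0.05. HEMGN, an erythroid nuclear protein, rose by 3.59 ± 0.08, and SELENBP1, a selenium-binding protein, by 3.36 ± 0.14. Glycophorin GYPC (3.20 ± 0.11), the beta spectrin chain SPTB (2.98 ± 0.13) and ankyrin ANK1 (2.85 ± 0.16) rose as well. The smallest rise of the list was ERMAP, the Scianna blood group protein, at 1.13 ± 0.20. The summed list was at 241 to 254 under crenolanib and at 2760.4 to 2904 in the combination.

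Among 14 erythroid and stem cell transcription factors, 10 rose and 0 fell, with a median of 1.47. GATA1, the master factor of erythroid genes, was at 3.60, 3.74 and 3.70 rescaled FPKM under crenolanib and at 57.0, 56.1 and 52.7 in the combination, a difference of 3.59 ± 0.11. KLF1, which drives beta globin, was at 5.91, 6.56 and 3.94 and then at 66.6, 40.1 and 34.3 (2.86 ± 0.27). The groups did not overlap for either gene, although KLF1 varied widely among the combination libraries. TAL1, a partner of GATA1, rose by 1.85 ± 0.17, GFI1B, a repressor needed for red cells and platelets, by 2.45 ± 0.19, TRIM58, a ubiquitin ligase of late erythroblasts, by 2.70 ± 0.18, and EPOR, the erythropoietin receptor, by 2.15 ± 0.21. LDB1, the bridging protein of the GATA1 complex, rose by 0.80 ± 0.12, and by 0.10 with FPKM as deposited, where it did not pass. MYB (-0.21 ± 0.12), LMO2 (-0.20 ± 0.19), BCL11A (0.06 ± 0.22) and IKZF1 (-0.18 ± 0.15), factors of progenitors, did not pass. Of 12 megakaryocyte and platelet markers, the sister lineage, only 3 were high enough to test and 1 rose, TUBB1, a platelet tubulin, at 1.86 ± 0.28. ITGA2B, the alpha chain of the platelet fibrinogen receptor, did not pass at 0.74 ± 0.31, with levels of 1.85, 2.87 and 2.61 and then 2.62, 6.33 and 5.94. PF4, GP9, GP1BB, ITGB3, SELP and GP6 were at 0 in all 3 combination libraries, the shallower ones. In all 3 crenolanib libraries 3 members of the list were at 0. The summed megakaryocyte list was at 6.96 to 7.95 and then at 10.6 to 19.0.

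Promoter sequences are shown for 3 raised red cell genes because they hold the GATA motif, the letters AGATAA read on either strand, which is bound by GATA1. They come from RefSeq on GRCh38.p14 and cover the 250 bases before the start, written 5′ to 3′ on the gene's strand, with the motif or its reverse complement in capitals. ALAS2 is at chrX:55030978-55031227 on the minus strand, EPB42 at chr15:43221019-43221268 on the minus strand and KEL at chr7:142962364-142962613 on the minus strand.
ALAS2: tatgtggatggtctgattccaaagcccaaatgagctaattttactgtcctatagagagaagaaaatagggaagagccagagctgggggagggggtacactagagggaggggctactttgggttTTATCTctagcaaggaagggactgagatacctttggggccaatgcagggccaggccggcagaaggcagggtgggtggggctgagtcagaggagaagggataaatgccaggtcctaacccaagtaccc
EPB42: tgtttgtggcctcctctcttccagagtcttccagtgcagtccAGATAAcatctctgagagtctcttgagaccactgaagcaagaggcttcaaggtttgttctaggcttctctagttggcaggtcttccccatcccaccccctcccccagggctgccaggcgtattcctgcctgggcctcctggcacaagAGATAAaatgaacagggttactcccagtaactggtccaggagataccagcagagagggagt
KEL: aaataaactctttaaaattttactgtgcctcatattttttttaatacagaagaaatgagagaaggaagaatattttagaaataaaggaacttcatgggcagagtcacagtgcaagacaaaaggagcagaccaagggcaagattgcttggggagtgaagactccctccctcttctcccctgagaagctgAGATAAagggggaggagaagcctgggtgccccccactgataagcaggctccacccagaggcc
The motif lies 122 to 127 bases upstream of the start in ALAS2, 57 to 62 bases upstream in KEL, and at 203 to 208 and again at 56 to 61 bases upstream in EPB42. It was found in 16 of the 39 promoters of the red cell lists that matched a RefSeq entry (41.0%) and in 548 of the 8372 promoters of all tested genes with an entry (6.55%). CCACACCC, a motif of Kruppel-like factors such as KLF1, was in 3 of 39 (7.69%) and in 311 of 8372 (3.71%). A match describes the letters in this window and is not a measured binding site.

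The labelled cell type was read against its markers. Of 19 leukaemic blast and KMT2A-fusion programme genes 18 could be tested, 1 rose and 4 fell, with a median of -0.30. FLT3, the target of crenolanib, was at 102, 95.8 and 98.7 rescaled FPKM under crenolanib and at 69.7, 71.3 and 77.8 in the combination. All combination libraries were below all crenolanib libraries, as for 25.1% of all genes tested, and FLT3 fell by 0.44 ± 0.07 on the log2 scale (limma adjusted p = 0.00449). ZEB2, a factor of myeloid leukaemia (-0.74 ± 0.12), PBX3, a partner of HOXA9 (-0.43 ± 0.12), and LAMP5, a membrane protein tied to KMT2A-fusion leukaemia (-0.87 ± 0.21), fell too, the last with no call when any 1 crenolanib library was left out (-0.90 to -0.82). HOXA5 rose by 1.32 ± 0.23, and HOXA9 (-0.01 ± 0.17), MEIS1 (-0.14 ± 0.17), KIT (0.19 ± 0.25) and CD33 (-0.32 ± 0.15) did not pass. CD34, a stem cell surface marker, did not reach the level for testing. The summed list was at 319.8 to 325 under crenolanib and at 242 to 260.1 in the combination. The blast genes that define the line were present in both groups while the red cell genes were far higher in the combination, and the part of other cells in this was not tested.

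Myeloid genes moved in both directions. Of 17 granule genes 9 rose and 2 fell, with a median of 0.99. MPO, the peroxidase of neutrophil granules, was at 260.3, 266 and 259.9 rescaled FPKM under crenolanib and at 553, 529.9 and 523 in the combination, with no overlap (1.03 ± 0.04). S100A8 was at 16.1, 19.1 and 21.3 and then at 78.8, 69.9 and 67.7 (1.89 ± 0.12). Its partner S100A9 (1.58 ± 0.19) and S100A12 (2.20 ± 0.19), which with S100A8 are inflammatory calcium-binding proteins, and LTF, lactoferrin (1.65 ± 0.12), rose likewise. The serine proteases divided, with CTSG (1.56 ± 0.06) and AZU1 (0.99 ± 0.05) raised, ELANE (-0.08 ± 0.12) and PRTN3 (0.30 ± 0.14) not passing. CEBPA, the factor that directs granulocyte fate (-1.19 ± 0.11), and LYZ, lysozyme (-0.37 ± 0.07), fell. Of 14 monocyte markers 3 rose and 4 fell, with a median of -0.0033. CD36, a scavenger receptor also found on red cell precursors, rose by 2.20 ± 0.13, from between 9.59 and 11.4 to between 48.6 and 60.6. CSF1R, the receptor for the monocyte growth factor (-1.12 ± 0.16), CD4 (-0.87 ± 0.12), IRF8 (-0.81 ± 0.16) and SPI1, the factor PU.1 (-0.68 ± 0.09), fell. SPI1 was at 108, 113 and 124 and then at 76.0, 65.9 and 73.0, with every combination library below. None of 4 tested lymphoid markers passed. Of 4 tested stromal, endothelial and epithelial markers CDH1, E-cadherin, which erythroid precursors also carry, rose (1.24 ± 0.30) and PECAM1 fell (-1.20 ± 0.14). The medians of these 2 lists, 0.37 and 0.13, fell below 0 with FPKM as deposited.

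For the axis in the study's title, HSPA5 and ATF4 rose in the main fit but not with FPKM as deposited. ATF6 and DDIT3 did not pass. The values are RNA levels per gene and measure no protein, cleavage or splicing. HSPA5 was at 46.5, 48.4 and 47.5 rescaled FPKM under crenolanib and at 88.8, 78.1 and 79.2 in the combination. No library overlapped, and the difference of 0.77 ± 0.08 passed (limma adjusted p = 0.000495). With FPKM as deposited it was 0.07 and did not pass. ATF6 was at 5.24, 4.61 and 5.10 and then at 3.75, 7.26 and 1.91. The combination libraries lay on both sides of the crenolanib ones, and the difference was -0.30 ± 0.36 (limma adjusted p = 0.583). It was 0.06 without combination library 3. DDIT3 was at 0.868, 4.90 and 1.74 and then at 3.23, 8.69 and 1.88. These ranges overlapped widely, on means of 43 and 23 reads per library, and the difference of 0.66 ± 0.56 did not pass (limma adjusted p = 0.425). ATF4, the factor of the integrated stress response, was at 112, 103 and 107 and then at 194, 177 and 144, a difference of 0.67 ± 0.11 with the groups apart (limma adjusted p = 0.00481). With FPKM as deposited ATF4 stood at -0.04. XBP1, the factor made by IRE1 splicing, was at 24.0, 22.0 and 25.4 and then at 27.0, 40.9 and 51.2. All combination libraries were above, but they spread widely and the difference of 0.67 ± 0.22 did not pass (limma adjusted p = 0.0585). It passed under 8 of the 23 alternatives run, among them the 12-library fit (0.65), limma voom on recovered reads (0.70) and the fit without combination library 1 (0.91), and it was -0.02 with FPKM as deposited.

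Promoters of 2 raised chaperone genes are shown because they carry the stress element that cleaved ATF6 uses, ERSE, which is CCAAT, then 9 bases of any kind, then CCACG, searched on both strands. They are the 250 bases before the start in RefSeq on GRCh38.p14, with the element in capitals, HSPA5 at chr9:125241344-125241593 on the minus strand and CRELD2 at chr22:49918384-49918633 on the plus strand.
HSPA5: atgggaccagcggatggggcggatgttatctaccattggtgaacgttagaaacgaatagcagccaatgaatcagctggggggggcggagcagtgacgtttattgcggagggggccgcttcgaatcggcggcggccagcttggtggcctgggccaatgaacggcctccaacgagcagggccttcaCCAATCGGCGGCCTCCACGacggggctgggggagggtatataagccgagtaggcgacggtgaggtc
CRELD2: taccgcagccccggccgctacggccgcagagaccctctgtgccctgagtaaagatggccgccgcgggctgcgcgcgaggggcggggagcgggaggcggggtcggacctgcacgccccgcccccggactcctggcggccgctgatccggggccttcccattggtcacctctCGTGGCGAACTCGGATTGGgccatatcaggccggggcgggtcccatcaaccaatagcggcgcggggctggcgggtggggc
The element lies 48 to 66 bases upstream of the start in HSPA5 and, as its reverse complement, 62 to 80 bases upstream in CRELD2. It was in 6 of the 18 promoters of endoplasmic reticulum chaperones that matched (33.3%: HSPA5, HSP90B1, CALR, CANX, PDIA6 and CRELD2) and in 14 of 8372 promoters of all tested genes (0.167%). Of the 6 genes that hold it, HSPA5 and CRELD2 rose, and HSP90B1 (0.37 ± 0.12), CALR (-0.01 ± 0.09), CANX (-0.25 ± 0.12) and PDIA6 (0.23 ± 0.20) did not pass.

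Across 19 endoplasmic reticulum chaperones and folding enzymes 4 rose and 2 fell, and the median was 0.22, or -0.47 with FPKM as deposited, where 0 rose and 10 fell. Besides HSPA5, the risers were SDF2L1, a co-chaperone, at 7.93, 8.44 and 7.72 and then 18.9, 11.4 and 18.3 (0.90 ± 0.20), MANF, a secreted stress protein (0.84 ± 0.24), and CRELD2, a folding factor (0.72 ± 0.17). These 3 calls were lost when any 1 of the crenolanib libraries was left out, at differences of 0.87 to 0.93, 0.78 to 0.87 and 0.66 to 0.81. The MANF call was also lost without combination library 2 (0.60) or 3 (0.80). P4HB, a protein disulphide isomerase (-0.63 ± 0.07), and HYOU1, a large chaperone that works with HSPA5 (-0.46 ± 0.12), fell. CALR, calreticulin, the most abundant of the list, was at 180.4, 176 and 169.8 and then at 186, 149.8 and 189.7, with the groups overlapping (-0.01 ± 0.09). Of 18 sensors, factors and degradation genes of the unfolded protein response 1 rose and 3 fell (median -0.31). HERPUD1, which recruits the degradation machinery, rose by 0.56 ± 0.13 but stood at -0.12 with FPKM as deposited, and it lost its call without crenolanib library 2 (0.57) or 3 (0.48). EDEM1, which marks misfolded glycoproteins for disposal, was at 29, 31.9 and 30.8 and then at 11.6, 16.1 and 16.9, wholly below (-1.01 ± 0.15). OS9, a lectin of the same route (-0.61 ± 0.11), and SELENOS, a selenoprotein that binds VCP (-0.64 ± 0.19), fell. The OS9 call was lost without crenolanib library 2 (-0.59).

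Of 24 integrated stress response factors and targets 7 rose and 2 fell, with a median of 0.34 that turned to -0.34 with FPKM as deposited, where 4 rose and 7 fell. GDF15, a stress cytokine, was at 12.8, 10.4 and 9.76 rescaled FPKM under crenolanib and at 42.5, 41.7 and 50.5 in the combination (1.94 ± 0.14). DDIT4, an inhibitor of mTORC1, was at 72.1, 68.8 and 74.8 and then at 219.7, 203 and 245 (1.61 ± 0.08). BBC3, the cell death protein PUMA, was at 5.58, 5.59 and 5.59 and then at 18.8, 22.3 and 12.9 (1.5 ± 0.20). In all 3 genes every combination library was above every crenolanib library. ATF3 rose by 1.33 ± 0.08, PSAT1, a serine synthesis enzyme, by 0.60 ± 0.16, and PPP1R15A, the phosphatase subunit that ends the response, by 0.55 ± 0.09. CHAC1 (1.14 ± 0.58), TRIB3 (0.89 ± 0.34) and SESN2 (0.83 ± 0.50), targets of ATF4 and CHOP, did not pass. SLC7A11, the cystine importer, was at 14.9, 13.9 and 15.8 and then at 5.76, 5.91 and 4.39, so it lay lower in every combination library (-1.33 ± 0.16). SLC7A5, an amino acid importer, fell by 0.51 ± 0.07 on the log2 scale.

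**Figure D2:**
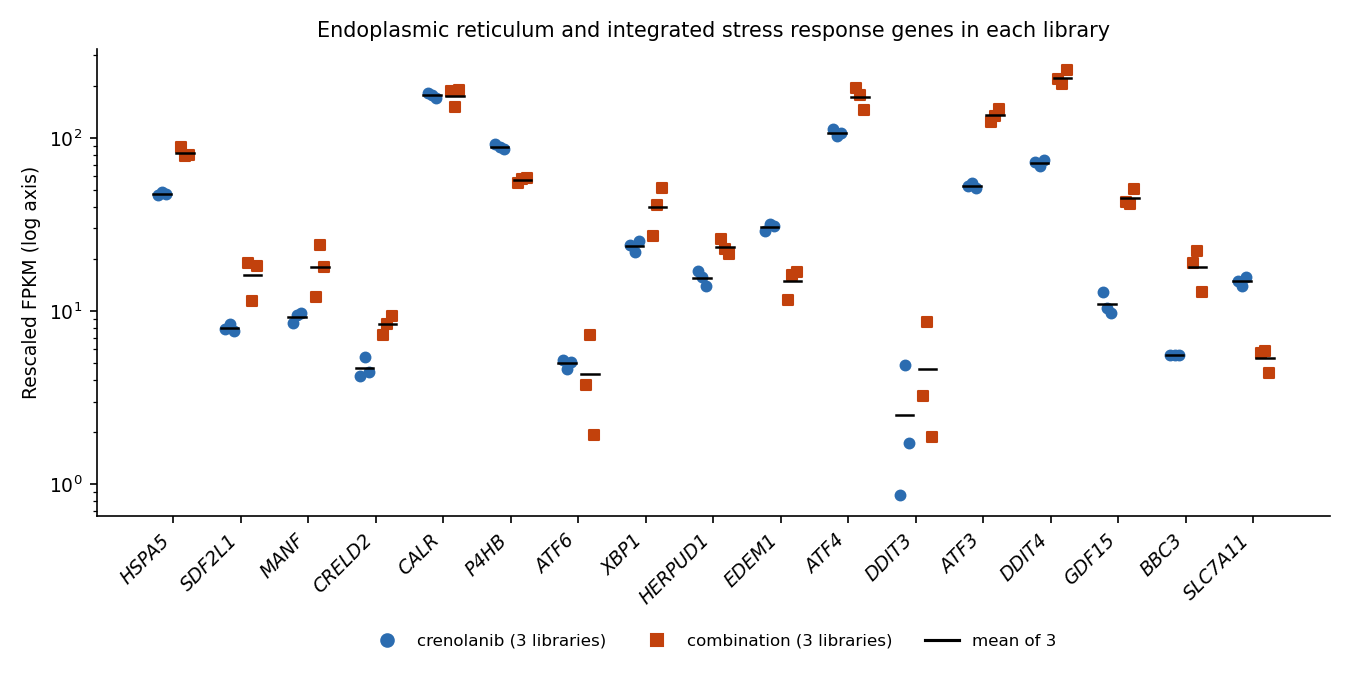
Rescaled FPKM (log axis) of 17 endoplasmic reticulum and integrated stress response genes in each library: circles are crenolanib, squares the combination and bars the mean of 3. HSPA5 rises from between 46.5 and 48.4 to between 78.1 and 88.8, P4HB, EDEM1 and SLC7A11 lie lower in the combination, and the ATF6 and DDIT3 libraries of the 2 groups overlap; with FPKM as deposited HSPA5 no longer passes and ATF4, XBP1 and HERPUD1 do not lie higher.

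CERT1, whose protein HPA-12 inhibits, was at 3.38, 3.35 and 3.63 rescaled FPKM under crenolanib and at 3.58, 4.06 and 2.05 in the combination. The groups overlapped and the difference of -0.11 ± 0.24 did not pass (limma adjusted p = 0.779). It was 0.10 without combination library 3, and it passed with FPKM as deposited (-0.65) and with the FPKM sum (-0.65). Of 15 ceramide transport and synthesis genes 2 rose and 3 fell, with a median of -0.35. SGMS1, which makes sphingomyelin from the ceramide that CERT delivers, rose by 1.28 ± 0.21. CERS2, the ceramide synthase for very long chains, was at 12.8, 14.0 and 13.7 and then at 24.2, 26.2 and 18.5 (0.71 ± 0.15). UGCG, which makes glucosylceramide, was at 61.7, 63.0 and 59.1 and then at 41.7, 47.8 and 47.6, lower in every combination library (-0.42 ± 0.09). SPTLC2, a subunit of the first enzyme of the pathway (-0.50 ± 0.14), and VAPB, the membrane protein that anchors CERT at the endoplasmic reticulum (-0.75 ± 0.19), fell. The calls of CERS2, UGCG and SPTLC2 were lost without any 1 crenolanib library (0.67 to 0.73, -0.44 to -0.40 and -0.51 to -0.48), and CERS2 was 0.03 with FPKM as deposited. Of 14 sphingolipid breakdown and sphingosine phosphate genes 0 rose and 1 fell, GALC, which degrades galactosylceramide (-0.79 ± 0.23). PSAP, the saposin precursor and the most abundant of them, was at 218, 222 and 229.7 and then at 178, 199.9 and 208 and did not pass (-0.20 ± 0.07).

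Immediate early genes, which respond within minutes to growth and stress signals, were mostly higher, with 13 of 17 raised, 2 lowered and a median of 1.17. JUN was at 299, 289 and 305 rescaled FPKM under crenolanib and at 1004, 1039.7 and 1133 in the combination (1.83 ± 0.05). ARC was at 543, 551 and 533 and then at 1456, 1356 and 1563 (1.42 ± 0.05). FOS was at 153, 161 and 144 and then at 396, 432 and 412 (1.43 ± 0.06). The combination was apart and higher in each. EGR1 (1.30 ± 0.09), FOSB (1.65 ± 0.09) and IER3 (1.79 ± 0.06) rose, whereas FOSL2 (-1.07 ± 0.10) and NR4A3 (-0.82 ± 0.20) fell and JUND did not pass (0.08 ± 0.05). MAPK feedback genes moved less as a group, with 4 of 12 raised, 1 lowered and a median of -0.01. DUSP1 (1.77 ± 0.14), DUSP2 (1.79 ± 0.07) and DUSP5 (1.05 ± 0.19), nuclear MAP kinase phosphatases, and RASD1, a Ras-like protein (1.89 ± 0.07), rose. DUSP6, the phosphatase that follows ERK activity, did not pass (-0.09 ± 0.20), nor did SPRY2 (-0.30 ± 0.31). PHLDA1 fell by 1.10 ± 0.27 on the log2 scale, without a call when combination library 2 (-1.01) or any crenolanib library (-1.19 to -0.97) was left out. Among 12 genes of STAT5 output and feedback 3 rose and 1 fell, with a median of -0.16. SOCS1, a brake on JAK signalling, was at 127, 118 and 129 and then at 403, 398 and 419 (1.70 ± 0.05), and SOCS3 (1.51 ± 0.14) and the kinase PIM1 (1.33 ± 0.13) rose with it. STAT5A fell (-0.94 ± 0.19), without a call when crenolanib library 3 was left out (-0.86). CISH (-0.20 ± 0.33), SOCS2 (-0.13 ± 0.23) and PIM2 (-0.20 ± 0.38), which FLT3 raises through STAT5, did not pass. Of 10 MYC network factors 2 rose and 3 fell (median -0.38). MYC itself did not pass (-0.24 ± 0.11), while its antagonists moved apart, with MXI1 (1.32 ± 0.15) and MXD3 (1.75 ± 0.32) raised and MXD1 (-1.06 ± 0.12) lowered.

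Ribosomal protein and mitochondrially encoded genes rose as whole lists, and the other lists of protein synthesis and respiration rose in part. All 24 cytosolic ribosomal proteins rose, between 0.984 and 2.01, with a median of 1.47 that was 0.76 with FPKM as deposited, where 23 rose. RPS12 was at 574, 642 and 577 rescaled FPKM under crenolanib and at 2552, 2284 and 2394 in the combination (2.01 ± 0.06). Ribosomal proteins have many processed pseudogenes, so reads may have been split between copies. The 23 ribosome biogenesis genes did not follow, with 4 raised, 0 lowered and a median of 0.10 that became -0.52 with FPKM as deposited, where 0 rose and 12 fell. All 13 mitochondrially encoded protein genes rose, with a median of 2.27. MT-CO1, a core subunit of cytochrome oxidase, was at 20002, 19525 and 20046 and then at 74908, 76355 and 76932 (1.94 ± 0.02), and MT-ND2, of complex I, differed by 2.73 ± 0.02. Of 24 nuclear-encoded subunits 10 rose and 0 fell, with a median of 0.48 that became -0.20 with FPKM as deposited. NDUFA1 (1.76 ± 0.14) and NDUFA4 (1.9 ± 0.18), small subunits, led, and ATP5F1B, the catalytic subunit of ATP synthase, did not pass (0.06 ± 0.09). Among 22 proteasome subunits 9 rose and 0 fell, with a median of 0.26 that became -0.43 with FPKM as deposited, where 0 rose and 10 fell.

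Heat shock chaperones of the cytosol and the mitochondria rose in part, 8 of 17 with 1 lowered, and their median of 0.39 became -0.27 with FPKM as deposited. HSPA1A was at 31.7, 34.4 and 35.2 rescaled FPKM under crenolanib and at 176, 141 and 164 in the combination (2.21 ± 0.10), and HSPA1B, a near-identical copy whose reads cannot be cleanly separated, differed by 2.47 ± 0.09. HSPB1, a small heat shock protein, was at 20.5, 20.4 and 20.8 and then at 136, 80.6 and 79.5 (2.16 ± 0.20). Both groups stood apart for these genes, as for DNAJB1, the co-chaperone of HSPA1A (1.06 ± 0.09). HSPD1 (0.20 ± 0.09) and HSPA9 (-0.13 ± 0.13), chaperones of the mitochondrial matrix, did not pass, and STIP1, which links HSP70 to HSP90, fell (-0.59 ± 0.15). Of 16 replication-dependent histone genes 12 rose and 0 fell, with a median of 1.98. H1-2, a linker histone, was at 42.9, 45.2 and 44.3 and then at 350.0, 345 and 246 (2.78 ± 0.13). H3C2 was at 11.5, 3.06 and 10.7 and then at 89.9, 72.0 and 72.6 (3.23 ± 0.41). H2BC12, the highest of the list, did not pass and its groups overlapped (0.32 ± 0.19). Histone genes are near-identical copies, so single members are uncertain.

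**Figure D3:**
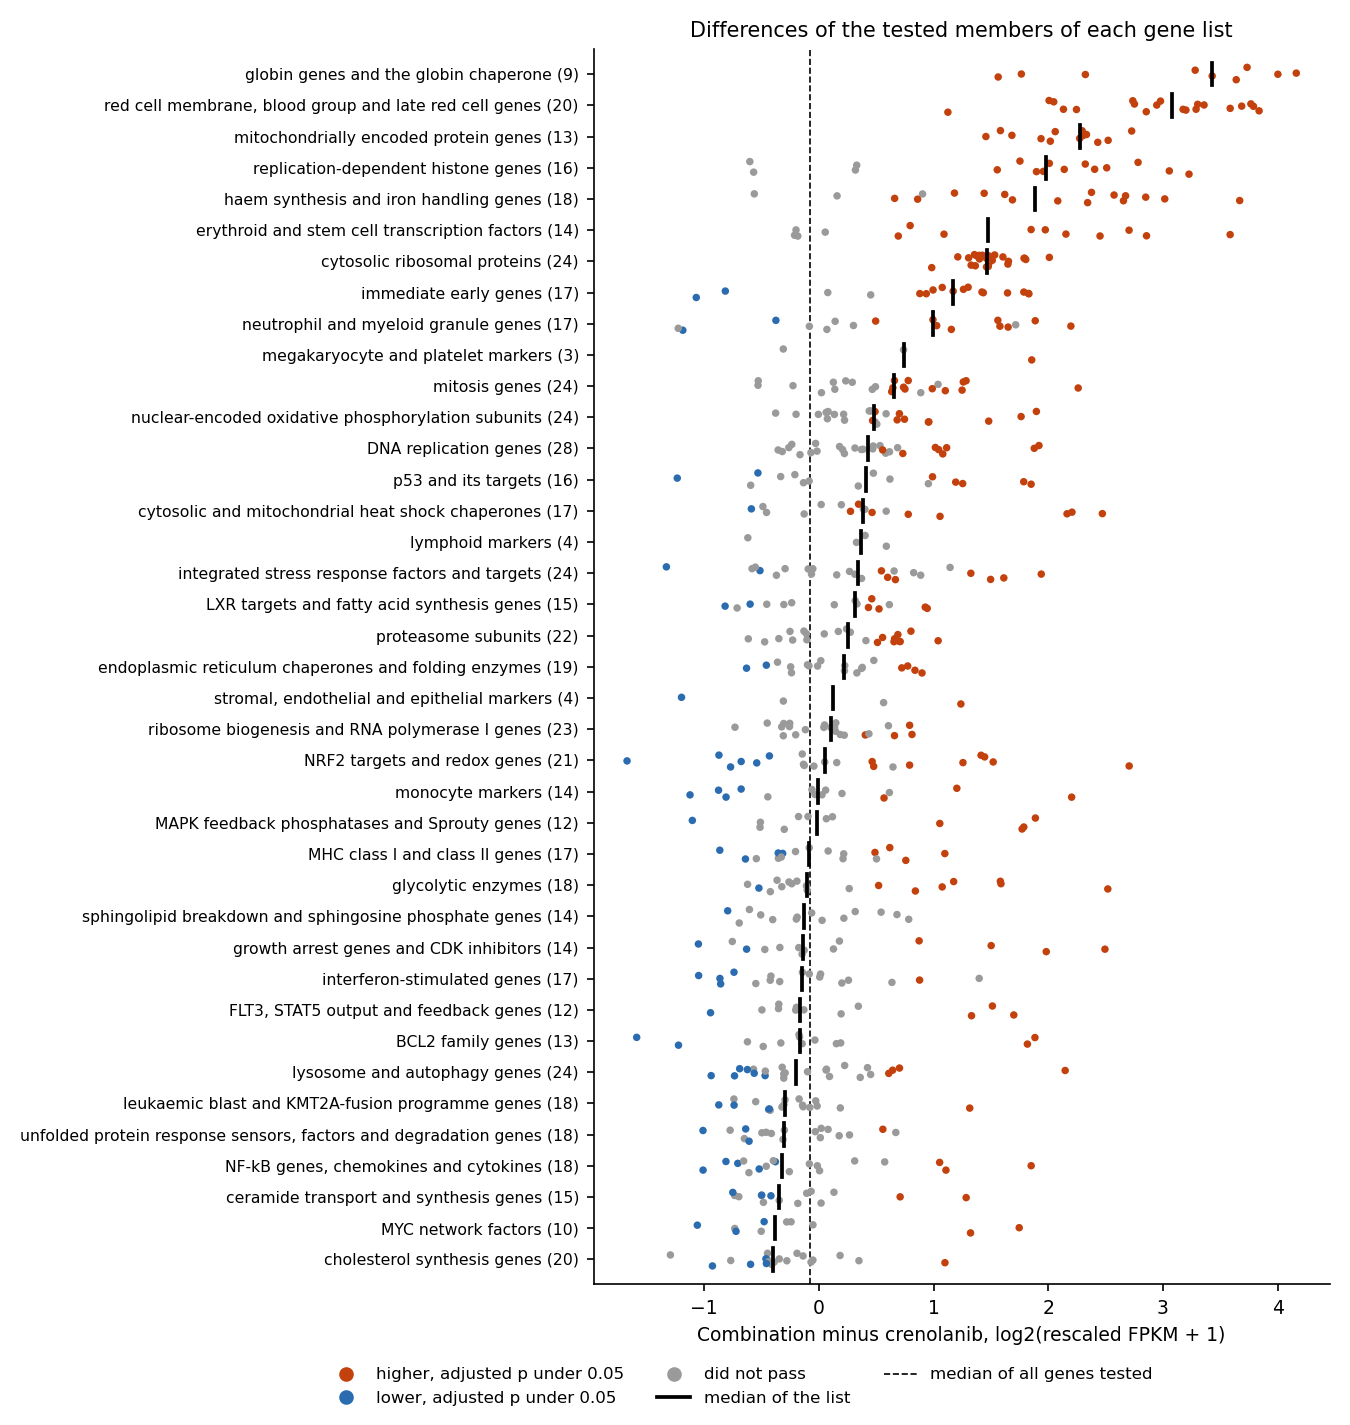
Log2 differences, combination minus crenolanib, of the tested members of each of 39 gene lists, with the number tested in parentheses; red points rose, blue points fell, grey points did not pass, black bars are list medians and the dashed line is the median of all genes tested (-0.08). Globin, red cell membrane, mitochondrially encoded, histone, haem, erythroid factor, ribosomal protein and immediate early lists have medians above 1, and cholesterol synthesis genes the lowest; with FPKM as deposited the median of all genes shifts by -0.57, and the list medians from the nuclear-encoded oxidative phosphorylation subunits (0.48) down to the NRF2 list (0.05) fall below 0.

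Cell cycle genes were higher where they passed. Of 28 DNA replication genes 8 rose and 0 fell, with a median of 0.43, or -0.12 with FPKM as deposited. RRM2, the ribonucleotide reductase subunit that limits nucleotide supply, was at 6.68, 6.31 and 6.65 rescaled FPKM under crenolanib and at 20.9, 28.7 and 34.7 in the combination (1.92 ± 0.19), and MCM7 (1.08 ± 0.12) and POLE (1.11 ± 0.13) rose. The helicase subunits MCM2 (-0.24 ± 0.24) to MCM6 (-0.07 ± 0.19) did not pass. Of 24 mitosis genes 12 rose and 0 fell, with a median of 0.65. PTTG1, securin, was at 7.31, 7.77 and 6.10 and then at 41.5, 31.8 and 39.9 (2.26 ± 0.15), and TPX2, a spindle factor, was at 17.3, 15.5 and 15 and then at 33.1, 45.7 and 39.4 (1.25 ± 0.14). BIRC5, survivin (1.26 ± 0.19), and MKI67, the marker of cycling cells (0.99 ± 0.16), rose, the latter not with FPKM as deposited (0.32). Of 14 growth arrest genes and CDK inhibitors 4 rose and 2 fell, with a median of -0.14. GADD45G was at 37.5, 48.0 and 50.4 and then at 229, 292 and 257 (2.49 ± 0.13), CDKN1C, a CDK inhibitor, at 36.4, 36.7 and 32.2 and then at 147, 139 and 138 (1.98 ± 0.08), and GADD45B at 522, 475 and 509.6 and then at 1531, 1377 and 1369 (1.5 ± 0.06). The combination libraries were all higher. Of 16 genes of p53 and its targets 5 rose and 2 fell, with a median of 0.41 that became -0.14 with FPKM as deposited. CDKN1A, the CDK inhibitor p21 (1.19 ± 0.11), PLK3 (1.85 ± 0.13), GADD45A (1.79 ± 0.11), CCNG1 (1.25 ± 0.12) and BTG2 (0.99 ± 0.07) rose, RRM2B (-1.23 ± 0.14) fell, and MDM2 did not pass (0.48 ± 0.17).

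Of 13 BCL2 family genes, which decide whether a cell dies through its mitochondria, 2 rose and 2 fell, with a median of -0.17. These counts are near the shares of all genes tested, 15.6% raised and 12.4% lowered. PMAIP1, the death activator NOXA, was at 20.7, 23.3 and 22.3 rescaled FPKM under crenolanib and at 72.8, 76.6 and 107 in the combination (1.88 ± 0.15). BCL2L1, the survival protein BCL-XL that red cell precursors rely on, was at 4.92, 5.75 and 4.47 and then at 19.3, 16.5 and 26.0 (1.82 ± 0.19). Both were higher in every combination library, so a death gene and a survival gene moved the same way. BMF, a death activator, was at 23.3, 24.0 and 23.4 and then at 5.02, 9.70 and 7.47 (-1.59 ± 0.21). BCL2A1, a survival protein of myeloid cells, was at 105, 143 and 115 and then at 45.6, 36.2 and 78.4 (-1.22 ± 0.27). Both lay lower in every combination library, though the BCL2A1 call was lost without crenolanib library 2 (-1.10). BCL2 (-0.48 ± 0.21), MCL1 (-0.17 ± 0.07), BAX (0.19 ± 0.11) and BCL2L11, the death activator BIM (0.15 ± 0.20), did not pass.

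Inflammatory and antigen presentation lists held genes that rose and genes that fell, where 15.6% of all genes tested rose and 12.4% fell, and shares near these say nothing particular of a list. Of 18 NF-kB genes, chemokines and cytokines 3 rose and 5 fell, with a median of -0.32. CXCL8, the neutrophil attractant interleukin 8, was at 1134, 1155 and 1105 rescaled FPKM under crenolanib and at 684, 628 and 623 in the combination (-0.81 ± 0.04). NFKB1, the p105 precursor, was at 41.8, 40.4 and 37.5 and then at 19.2, 19.1 and 19.6 (-1.01 ± 0.09). NFKBIA, the inhibitor that NF-kB itself induces, was at 93.0, 94.2 and 91.5 and then at 210.1, 201 and 194 (1.11 ± 0.06). The first pair lay wholly lower in the combination and NFKBIA wholly higher. CXCL2 (1.05 ± 0.18, and 0.34 with no call with FPKM as deposited) and CXCL1 (1.85 ± 0.43) rose, the latter with no call without crenolanib library 1 (1.66) or 2 (1.92). Among 17 genes that interferon stimulates, 1 rose and 4 fell (median -0.14), among them STAT2 (-0.86 ± 0.12) and IFIT3 (-1.05 ± 0.23). Of 17 genes of MHC class I and II 4 rose and 4 fell (median -0.08). The risers included HLA-B (0.49 ± 0.14), HLA-C (0.76 ± 0.06) and B2M (0.62 ± 0.04) of class I, and with FPKM as deposited 0 rose. CIITA, the master factor of class II (-0.86 ± 0.27), HLA-DRA (-0.35 ± 0.09), CD74 (-0.32 ± 0.08) and TAPBP (-0.64 ± 0.19) fell, and the TAPBP call was lost without combination library 1 (-0.59) or 2 (-0.52) or any crenolanib library (-0.70 to -0.59).

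Metabolic lists were mixed. Of 18 glycolysis genes 7 rose and 1 fell (median -0.10), and HK1, the hexokinase of red cells, led, at 9.75, 8.03 and 8.60 rescaled FPKM under crenolanib and 61.4, 53.8 and 50.4 in the combination (2.52 ± 0.12). SLC2A1, the glucose transporter of red cells, was at 19.1, 17.3 and 21.9 and then at 68.0, 51.6 and 61.6 (1.58 ± 0.14), while PKM fell (-0.52 ± 0.10) and LDHA did not pass (-0.32 ± 0.13). Of 20 cholesterol synthesis genes 1 rose and 4 fell, with a median of -0.40. FDFT1, squalene synthase, was at 58.3, 60.6 and 61.6 and then at 38.6, 37.4 and 42.7 (-0.60 ± 0.09), and INSIG1, a sterol-sensing brake, fell (-0.46 ± 0.08). SREBF2, the factor that raises the pathway, fell (-0.46 ± 0.09), but without a call when any 1 crenolanib library was left out (-0.46 to -0.45). Of 15 LXR targets and fatty acid synthesis genes 5 rose and 2 fell, with a median of 0.32 that became -0.34 with FPKM as deposited. SCD, the fatty acid desaturase, was at 66.6, 72.0 and 73.3 and then at 32.9, 45.4 and 41.6 (-0.82 ± 0.13). Of 21 NRF2 targets and redox genes 8 rose and 6 fell, with a median of 0.05 that became -0.62 with FPKM as deposited and -0.03 with upper-quartile scaling. PRDX2, the peroxiredoxin of red cells, was at 33.0, 34.4 and 32.0 and then at 216, 222 and 226 (2.71 ± 0.06). HMOX1, which breaks down haem, was at 109.8, 102 and 101 and then at 33.4, 27.1 and 36.2 (-1.67 ± 0.12). The first was wholly higher and the second wholly lower in the combination, and SOD1 (1.52 ± 0.09) rose while the NRF2 targets NQO1 (-0.77 ± 0.17) and TXNRD1 (-0.68 ± 0.09) fell. Of 24 lysosome and autophagy genes 4 rose and 6 fell (median -0.20), among the latter GRN, progranulin, at 156, 159 and 165 and then 81.4, 79.5 and 87.7 (-0.94 ± 0.06), and LAMP1 (-0.69 ± 0.14).

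The 12 most lowered genes differed by between -2.12 and -1.62. MARCKS, a substrate of protein kinase C, was at 25.2, 24.6 and 24.8 rescaled FPKM under crenolanib and at 5.44, 6.84 and 6.35 in the combination (-1.85 ± 0.13). INHBA, the activin A subunit, was at 20.1, 19.2 and 20.4 and then at 3.95, 5.96 and 6.85 (-1.69 ± 0.19). TCFL5, a helix-loop-helix factor, was at 10.1, 13.6 and 10.6 and then at 2.74, 3.15 and 1.89 (-1.79 ± 0.21). For each the 3 combination libraries lay below the crenolanib ones, and no overlap was a condition for choosing all 12. ADAMTSL4 (-1.70 ± 0.16), COMMD5 (-1.69 ± 0.20), HMOX1 (-1.67 ± 0.12), INAFM2 (-1.66 ± 0.19), MAZ (-1.63 ± 0.22), INTS14 (-1.62 ± 0.31) and IQCN (-1.86 ± 0.35) also kept their calls under the alternatives run. FABP3, a fatty acid binding protein, was at 9.90, 10.6 and 7.53 and then at 0, 2.30 and 2.93, on a mean of 9 reads per combination library (-2.12 ± 0.50), and its call was lost without any 1 crenolanib library (-2.22 to -2.01). AQP9, a channel for water and glycerol, was at 14.2, 15.8 and 16.3 and then at 10.6, 2.82 and 1.43 (-1.78 ± 0.52), with no call without combination library 2 (-1.65) or 3 (-1.32) or any crenolanib library (-1.82 to -1.73).

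Adding HPA-12 to crenolanib was then compared with adding it to DMSO, over all 12 libraries, as the difference of the 2 differences. These comparisons share no library. Of 11055 genes tested 6103 differed (55.2%), 2859 higher (25.9%) and 3244 lower (29.3%). Across these genes the 2 differences correlated at r = -0.22, and at -0.21 over the 6158 genes with a mean of at least 5 rescaled FPKM, given as a description since genes share their libraries. On the scale of the 12 libraries HSPA5 averaged 72.2 rescaled FPKM in DMSO and 23.1 when HPA-12 was given alone, and 55.1 under crenolanib and 93.4 in the combination. It was thus lower with HPA-12 alone (-1.60) and higher with HPA-12 on crenolanib (0.75), and the difference of 2.35 ± 0.10 passed (limma adjusted p = 9.58e-09). XBP1 followed, with -1.37 for HPA-12 alone and 0.65 on crenolanib (limma adjusted p = 4.05e-05). With FPKM as deposited the 6-library difference on crenolanib was 0.07 for HSPA5, without a call, and -0.02 for XBP1. XBP1 also did not pass in the main 6-library fit. The difference of the 2 differences kept its call for both genes under the 18 alternatives run. With HPA-12 alone and on crenolanib the values were 0.84 and 0.64 for ATF4, 0.40 and -0.33 for ATF6, and 0.16 and 0.66 for DDIT3. Their differences of -0.20 ± 0.13, -0.74 ± 0.40 and 0.50 ± 0.66 did not pass. Those for ATF4 and ATF6 passed with FPKM as deposited (-0.92 and -1.32), ATF4 also without combination library 1 (-0.30) and ATF6 without combination library 2 (-1.14), and that for DDIT3 changed sign with FPKM as deposited (-0.04).

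MPO was the gene with the largest positive difference. It averaged 343 in DMSO and 13.7 under HPA-12 alone, against 304 under crenolanib and 609.7 in the combination. CXCL8 had the largest negative difference, at 5.16, 135, 1313 and 735 in the same order. HPA-12 thus lowered MPO and raised CXCL8 without crenolanib, and did the reverse with it. Such opposite signs are favoured by picking the largest differences. HBB averaged 61.4, 169.7, 3558 and 33927, and GATA1 0.417, 1.01, 4.28 and 63.0. HPA-12 raised HBB in both settings, by 1.45 and by 3.25, and the rise was larger with crenolanib by 1.8 ± 0.07 (limma adjusted p = 8.52e-09). For GATA1 it was larger by 3.10 ± 0.17, but at the low levels of GATA1 without crenolanib the scale understates the change. JUN (2.45 and 1.8) and FOS (2.90 and 1.41) rose in both settings and less with crenolanib, by -0.65 and -1.49. MT-CO1 was nearly level with HPA-12 alone (0.02) and higher on crenolanib (1.91). FLT3 was raised by HPA-12 alone (0.68) and lowered on crenolanib (-0.47), a difference of -1.15 ± 0.08 (limma adjusted p = 2.72e-07).

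**Figure D4:**
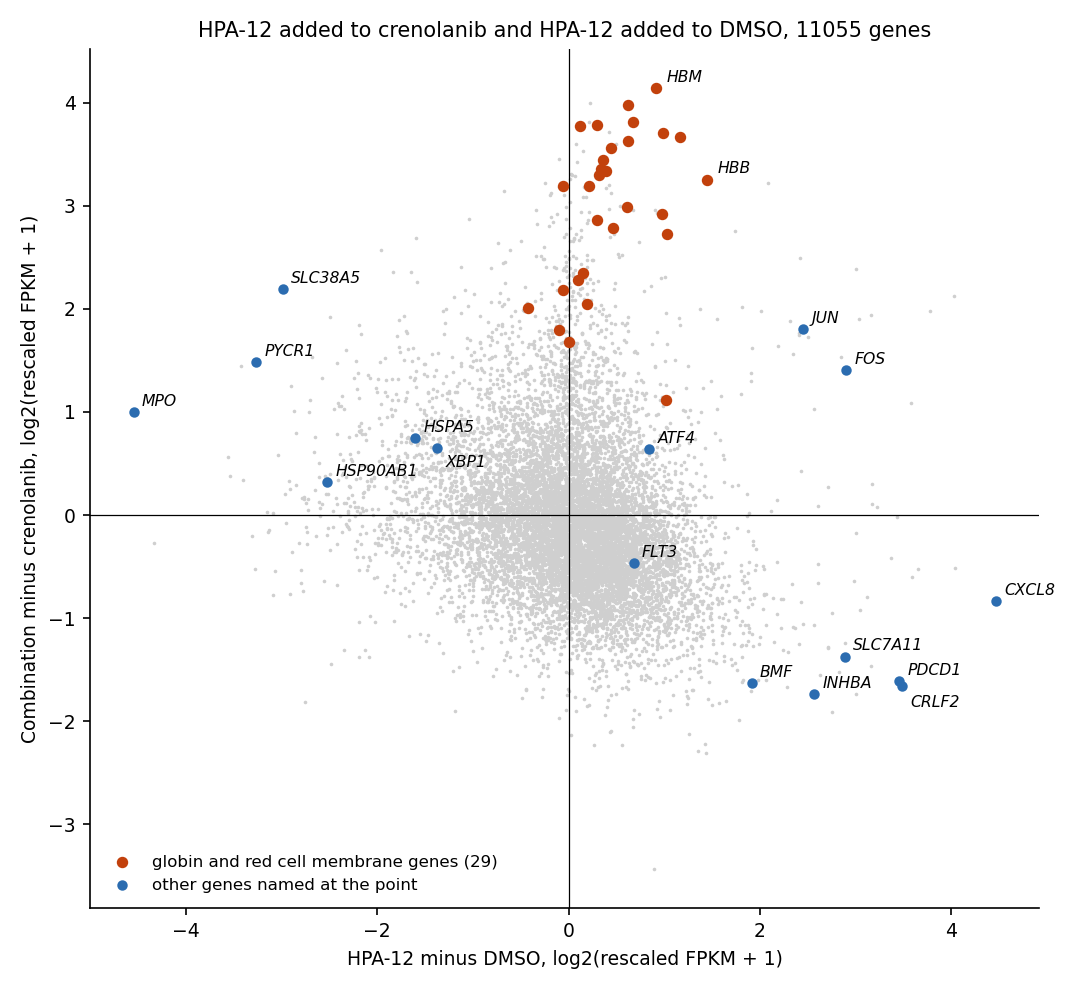
Each point is 1 of 11055 genes: the horizontal axis is HPA-12 minus DMSO and the vertical axis combination minus crenolanib, both on the log2(rescaled FPKM + 1) scale. The 29 globin and red cell membrane genes (red) lie high on the vertical axis, and on the horizontal one run from EPB41 at -0.43 to HBB at 1.45. The scale understates horizontal changes of low genes such as HBM, at 0.358 rescaled FPKM in DMSO and 1.59 with HPA-12 alone. MPO and HSPA5 lie to the upper left, and CXCL8, PDCD1 and CRLF2 to the lower right.

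The precision of these values differed between the groups and with gene length. For genes of 10 to 1000 recovered reads, the variance between libraries over the mean was 15.1 to 16.7 in the combination, 5.24 to 5.64 with crenolanib, 1.85 to 2.96 in DMSO and 1.96 to 4.88 with HPA-12, where counting error alone would give 1. For genes at 2 to 5 rescaled FPKM the median coefficient of variation was 39.3% in the combination and 12.6% with crenolanib, and for genes of at least 20 it was 13.2% and 4.63%. Differences also fell with exon length, with genes sorted into 5 equal classes by length. Length here is the merged exons of all annotated transcripts of a gene, which can exceed that of the transcript expressed. For genes with a mean of at least 20 rescaled FPKM the median went from 0.74 in the shortest class to -0.27 in the longest. Lists of short genes share their direction with short genes at large, and the part of length in their rise was not tested. Of the histones all 15 with a length are in the shortest class, and of the granule genes 14 of 17. All 9 tested globin genes are in the shortest class too, with a median exon length of 869 bases, and the mitochondrially encoded genes, left out of the classes, are as short, with a median of 784 bases. Among genes of the 2 longest classes, all 4 red cell membrane genes rose with a median of 2.92 and all 4 haem genes with 2.0. All 4 ribosomal proteins there rose with 1.48, whereas 2 of 4 erythroid factors rose, with a median of 0.57, and 1 of 3 immediate early genes. Of all genes tested with a length, 10.5% rose in class 4 and 8.47% in class 5. By merged exons these genes are long, which does not make their transcripts long.

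**Figure D5:**
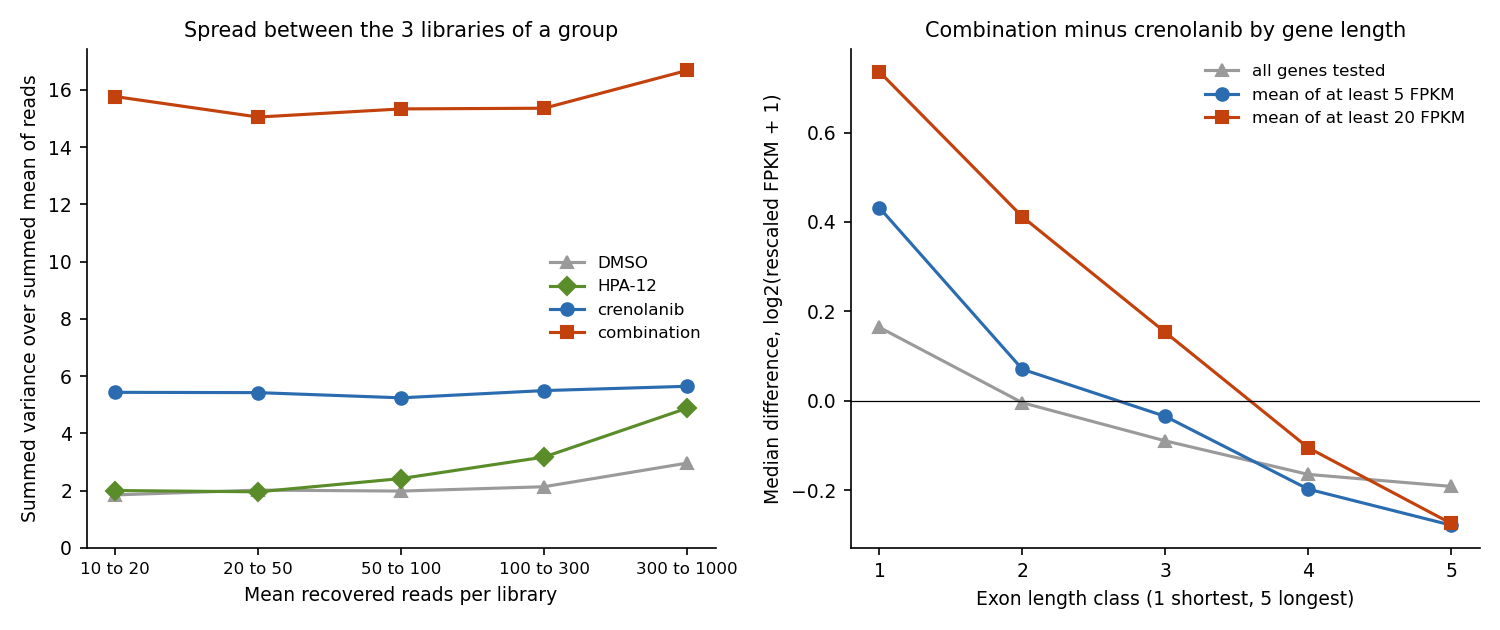
The left panel plots the summed variance over the summed mean of recovered reads in the 3 libraries of each group by read class, at 15.1 to 16.7 in the combination and 5.24 to 5.64 with crenolanib. The right panel plots the median log2 difference, combination minus crenolanib, by exon length class, 1 shortest to 5 longest, falling from 0.74 to -0.27 for genes of at least 20 rescaled FPKM and from 0.16 to -0.19 for all genes tested.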

How the data were processed

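RNA of MV-4-11 cells was measured as FPKM, fragments scaled to gene length and library size, a table that the authors deposited with a value column for each library. The aligner, counter and genome build were not given in the sources used here, nor was the use of strand, so overlapping and antisense genes are uncertain. Symbols were found for 20011 of 20036 identifiers.

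Each library was divided by its median ratio to the geometric mean library over genes above 0 in all 6, mitochondrially encoded genes left out. Genes with at least 1 rescaled FPKM in at least 3 of 6 libraries were tested on log2(rescaled FPKM + 1) with limma 3.58.1 (R 4.3.3, statmod 1.5.0; mean-variance trend, robust), two-sided, with Benjamini-Hochberg adjustment over all genes tested and a threshold of 0.05. The comparison with HPA-12 alone used all 12 libraries and 4 groups, with 1 pooled variance per gene. In that fit the SE of combination minus crenolanib tends to be understated, because the steadier groups share the variance of the combination. Nothing says that the libraries of a group are separate cultures, so p-values reflect how these libraries vary, which may be technical variation.

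The FPKM steps gave whole reads, within 0.05 of a whole number, for 20026 genes (99.95%), and these reads gave depths and a limma voom test. The fit was checked on simulated data first. Named genes are the 12 most raised and 12 most lowered among those that passed, with a mean of at least 5 rescaled FPKM and no overlap, up to 4 members of each of 39 gene lists and its highest member, 7 genes of the study's title, target and stress factors, and the 5 largest each way for the comparison with HPA-12. Some of these are not reported here. Other members named beside a count were chosen after their values were seen. The comparison, gene lists and motifs were chosen with earlier results of these data known. Alternatives were other scalings, pseudocounts, filters, fits and libraries left out. The replicate numbers were not used as a pairing in the main fit, and a pairing can be neither shown nor excluded.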

Additional observations from a re-analysis of the deposited data

Results flagged for a closer look

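In 13 genes the effect of adding HPA-12 differed between cells given crenolanib and cells given DMSO, by a limma test of the difference itself over all 12 libraries, where 55.2% of all genes tested differed. Each value is the difference of the 2 differences on the log2 scale. Positive ones were MPO, myeloperoxidase (5.55), SLC38A5, an amino acid transporter (5.18), DNPH1, a nucleotide hydrolase (4.86), and PYCR1, a proline synthesis enzyme (4.74). All 4 were lower with HPA-12 alone, by -4.55, -2.99, -3.42 and -3.26, and higher with HPA-12 on crenolanib. DNPH1 was at 32.6 ± 17.5 in the combination (SD). Its call against crenolanib changed in 8 of 22 alternatives, among them the fits without any 1 crenolanib library (1.34 to 1.52).

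The 5 largest negative ones were CXCL8, interleukin 8 (-5.30), CRLF2, a cytokine receptor (-5.15), PDCD1, the immune checkpoint receptor PD-1 (-5.07), TMEM86A, a membrane enzyme (-4.74), and IQCN (-4.66). All 5 were higher with HPA-12 alone, by 4.46, 3.49, 3.45, 3.01 and 2.75, and lower with HPA-12 on crenolanib. PDCD1 averaged 0.248 rescaled FPKM in DMSO and 12.6 under HPA-12 alone, against 46.8 under crenolanib and 14.6 in the combination. TMEM86A was at 1.87 ± 1.79 in the combination (SD), and its call against crenolanib changed in 6 of 20 alternatives.

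Of the genes named for the study's title and targets, HSPA5 (2.35), XBP1 (2.02), FLT3 (-1.15) and CERT1 (-0.73) also differed. CERT1 averaged 1.41 in DMSO and 2.66 under HPA-12 alone, against 4.01 under crenolanib and 3.68 in the combination. Its difference was 0.60 ± 0.18 (SE) with HPA-12 alone and -0.13 ± 0.18 on crenolanib. The 2 SEs are equal because the fit pools 1 variance over the 4 groups. The SDs of CERT1 ran from 0.0291 in DMSO to 1.19 in the combination, so the pooled SE understates the spread behind the second difference. The CERT1 call, at a limma adjusted p of 0.0267, was lost in 6 of the 12 fits with 1 library left out (each DMSO library, HPA-12 library 2 or 3, or crenolanib library 3), at -0.74 to -0.70.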

How the results depend on the processing

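Of 183 named genes, 123 kept their direction and side of the threshold under every alternative run. The main count of 2862 changed genes became 5107 with 2886 lower in the 12-library fit, 5860 (758 higher, 5102 lower, 3112 by over 1 log2 unit) with FPKM as deposited, 5795 (764, 5031 and 3058) with the FPKM sum, and 970 (617, 353 and 378) for genes with a mean of at least 20 rescaled FPKM, an alternative added after seeing the data, of 1434 genes tested. A pseudocount of 5 left 525 genes changed by over 1 log2 unit. Leaving out 1 library gave 1400 to 3340 changed, 1001 to 1657 higher, 397 to 1683 lower and 908 to 1437 by over 1 log2 unit, the lowest each time without a crenolanib library. The replicate number as a block gave 2385 changed genes (1412 higher, 973 lower), and the difference from HPA-12 gave 5973. Deviations of same-numbered libraries correlated at -0.004 to 0.025, and those of other pairs at -0.030 to 0.021. Given the spread between the combination libraries, this cannot show or exclude a pairing by number. Upper-quartile scaling gave 1454 higher and 1570 lower, and limma voom on recovered reads, added after seeing the data, 3529 changed. The difference from HPA-12 had 4046 genes among those with a mean of at least 5. Counted under 0.1 FPKM in place of 0, the difference in genes not seen was 2111.

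Directions turned as follows. With FPKM as deposited: HERPUD1 -0.12, XBP1 -0.021, NKG7 -0.36, NOP56 -0.022, BOP1 -0.27, ATP5F1B -0.65, PSMB4 -0.0057, HSP90AB1 -0.37, H2BC12 -0.39, ISG15 -0.049, B2M -0.095, GAPDH -0.19, NR1H2 -0.16 and ATF4 -0.042. With the FPKM sum: HERPUD1 -0.11, XBP1 -0.010, NKG7 -0.35, NOP56 -0.012, BOP1 -0.26, ATP5F1B -0.64, HSP90AB1 -0.36, H2BC12 -0.38, ISG15 -0.039, B2M -0.084, GAPDH -0.18, NR1H2 -0.15 and ATF4 -0.032. ATP5F1B was -0.022 with upper-quartile scaling. Leaving out 1 library at a time, ATP5F1B ranged over -0.055 to 0.11, CALR over -0.087 to 0.085, ATF6 over -0.70 to 0.056 and CERT1 over -0.26 to 0.10. Less the median of all genes, the endoplasmic reticulum chaperone list was -0.29 for genes of at least 20 rescaled FPKM and the megakaryocyte list -0.087 with no filter. The difference from HPA-12 for DDIT3 was -0.039 with FPKM as deposited and ranged over -0.000939 to 0.98 with 1 library left out. The cause of these turns was not tested, beyond the shift of all genes that the scalings bring by construction. The combination libraries are the shallowest and the most variable. Of the differences from HPA-12 for the genes of the title and target, CERT1 lost its call in 6 fits with 1 library left out, and ATF4 and ATF6 gained one in 2 alternatives each.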
